A study of Homo sapiens with 8 samples.

Results

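The genes IFNG, IL26 and IL22 encode 3 cytokines and lie side by side on chromosome 12 (hg38). They were studied here through 16 chromatin immunoprecipitation peaks, selected on position as those that overlap the body of a member gene or 50 kb on either side of it, out of 189160 peaks in 4 deposited lists. The 3 windows join into 1 interval of 198837 bp (chr12:68104768-68303604), which held 8 DMSO peaks, 1 peak of the library labelled ATRA, 2 POM peaks and 5 ATRA+POM peaks. The cluster itself was chosen by measured values: by summit reads, the peak at an annotated end of IL26 was among the 10 strongest gene-end peaks that ATRA+POM had and DMSO lacked. Its values are given as a description and no test was made on them.

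The cells were OPM-2, an established human multiple myeloma line, treated over 72 h. The control received the solvent DMSO, another culture 1 µM ATRA (all-trans retinoic acid, which activates retinoic acid receptors), a separate culture 1 µM POM (pomalidomide, a drug that redirects the cereblon ubiquitin ligase to IKZF1 and IKZF3), and the last 1 µM of each. All groups share this cell line, which is known to carry a t(4;14) translocation. The labels name no difference in genotype between the groups and no further agent. There was 1 ChIP library and 1 input library per treatment, and the antibody is not named. With 1 library per treatment no difference could be set against a replicate spread, and every interval below covers counting error only.

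Interferon gamma, the product of IFNG, is the main cytokine of T helper 1 and natural killer cells and signals through the kinases JAK1 and JAK2. IL-22 and IL-26 belong to the IL-10 family, are made chiefly by T helper 17 cells and innate lymphocytes, and act on epithelial cells through receptors that contain IL10RB. In lymphocytes the cluster is known to be governed by distant elements as well as by promoters, and myeloma cells, which derive from plasma cells, are not a textbook source of these cytokines.

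No peak of any list overlapped the promoter of IFNG or of IL26. The 250 bases upstream of each annotated start are printed because the strong ATRA+POM peak described next lay at the opposite end of IL26 and not here. The sequences are RefSeq's (GRCh38.p14, minus strand, 5′ to 3′) and capitals mark matches to the motifs searched.
IFNG (chr12:68159741-68159990): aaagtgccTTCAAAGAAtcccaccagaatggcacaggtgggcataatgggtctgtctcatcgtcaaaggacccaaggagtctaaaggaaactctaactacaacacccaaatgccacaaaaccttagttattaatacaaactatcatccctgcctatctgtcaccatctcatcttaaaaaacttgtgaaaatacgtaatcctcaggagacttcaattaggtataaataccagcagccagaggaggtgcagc
IL26 (chr12:68225811-68226060): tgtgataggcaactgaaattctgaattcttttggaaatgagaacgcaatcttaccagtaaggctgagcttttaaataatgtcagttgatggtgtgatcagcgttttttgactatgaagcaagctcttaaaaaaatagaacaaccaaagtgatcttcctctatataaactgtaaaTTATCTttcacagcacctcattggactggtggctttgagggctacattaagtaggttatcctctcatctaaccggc

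Of 11 motifs searched on both strands, the IFNG sequence held 1 match, to the STAT motif TTCNNNGAA, which 6.56% of 34943 upstream sequences of the same length also hold. The IL26 sequence held 1 match, to the GATA motif AGATAA, which 9.19% of them hold. The letters of the retinoid receptor element AGGTCA (12.1% of all sequences), alone or as a direct repeat 2 or 5 bases apart (0.00286% each), were in neither. The same holds for AP-1 TGANTCA (6.59%), the interferon-stimulated element (3.02%), ETS GGAAGT (19.5%), Ikaros TGGGAA (20.9%), RUNX TGTGGT (11.0%) and the E-box CACGTG (6.32%). A lone AGGTCA match would also be counted inside each repeat. The peak nearest to the IFNG start lay 36.6 kb away (POM) and the one nearest to the IL26 start 15.4 kb away (DMSO).

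The library labelled ATRA stood apart. The reads at a peak's summit, recovered from the authors' fold enrichment and p, had a median of 23 in it and of 65 to 78 in the other libraries. Its depth came to 0.133 of that of DMSO, against 0.927 for POM and 0.902 for ATRA+POM. Fold enrichment is the authors' ratio of summit to local background inside each library, with no scaling across libraries. Every plasma cell marker on the list used (10 of 10 genes, among them SDC1, TNFRSF17 and JCHAIN) had a peak within 1000 bp of a gene end in each list. In the order DMSO, ATRA-labelled, POM and ATRA+POM, all protein-coding genes had one in 48.8, 40.0, 47.9 and 41.3% of cases and the T cell list at 3, 3, 4 and 2 of 10 genes. Of the T cell markers CD28 had 962, 166, 1359 and 664 summit reads, CD2 had 100, 13, 175 and 67, BCL11B had 85, 9 and 60 and none with ATRA+POM, and CD3E had 92 with POM only. The CD28 and BCL11B peaks lay at the start of the gene, but those of CD2 lay at its far end. CD3D, CD3G, CD4, CD5, CD8A and THEMIS had none in any list. For natural killer cells it was 2, 2, 2 and 1 of 7 genes. B cell markers had 1 of 6 in each list, and myeloid markers 1, 0, 1 and 1 of 6.

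The 16 peaks fell at 6 sites when peaks within 500 bp were joined, and at 9 regions when only peaks sharing a base were joined. None of the 9 regions was called in all 4 lists, a pattern that 28.8% of the 67328 regions of the whole genome show. With DMSO alone 4 were called, a pattern of 16.3% of all regions. Each other pattern had 1 region. These were POM and ATRA+POM (9.60% of all regions), DMSO, POM and ATRA+POM (8.62%) and ATRA+POM alone (5.23%). The last were DMSO and ATRA-labelled (4.11%) and DMSO and ATRA+POM (1.07%). The peaks were spread unevenly over the treatments. With DMSO they lay beyond IFNG, beyond IL22 and between IL26 and IL22, the single ATRA-labelled peak lay beyond IL22, and peaks within 1000 bp of an end of IL26 were called in the POM and ATRA+POM lists alone. IFNG and IL22 held no peak in their bodies in any list, and IL26 held part of 1 ATRA+POM peak. In that order of lists the cluster had 4.02, 0.503, 1.01 and 2.52 peaks per 100 kb. The median over the windows of 19974 protein-coding genes was 2.54, 1.79, 2.65 and 2.05, so the cluster was above that median with DMSO and ATRA+POM and below it in the other lists. It was not extreme in any list: 68.6, 28.4, 27.6 and 55.1% of these windows had a lower density.

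**Figure D1:**
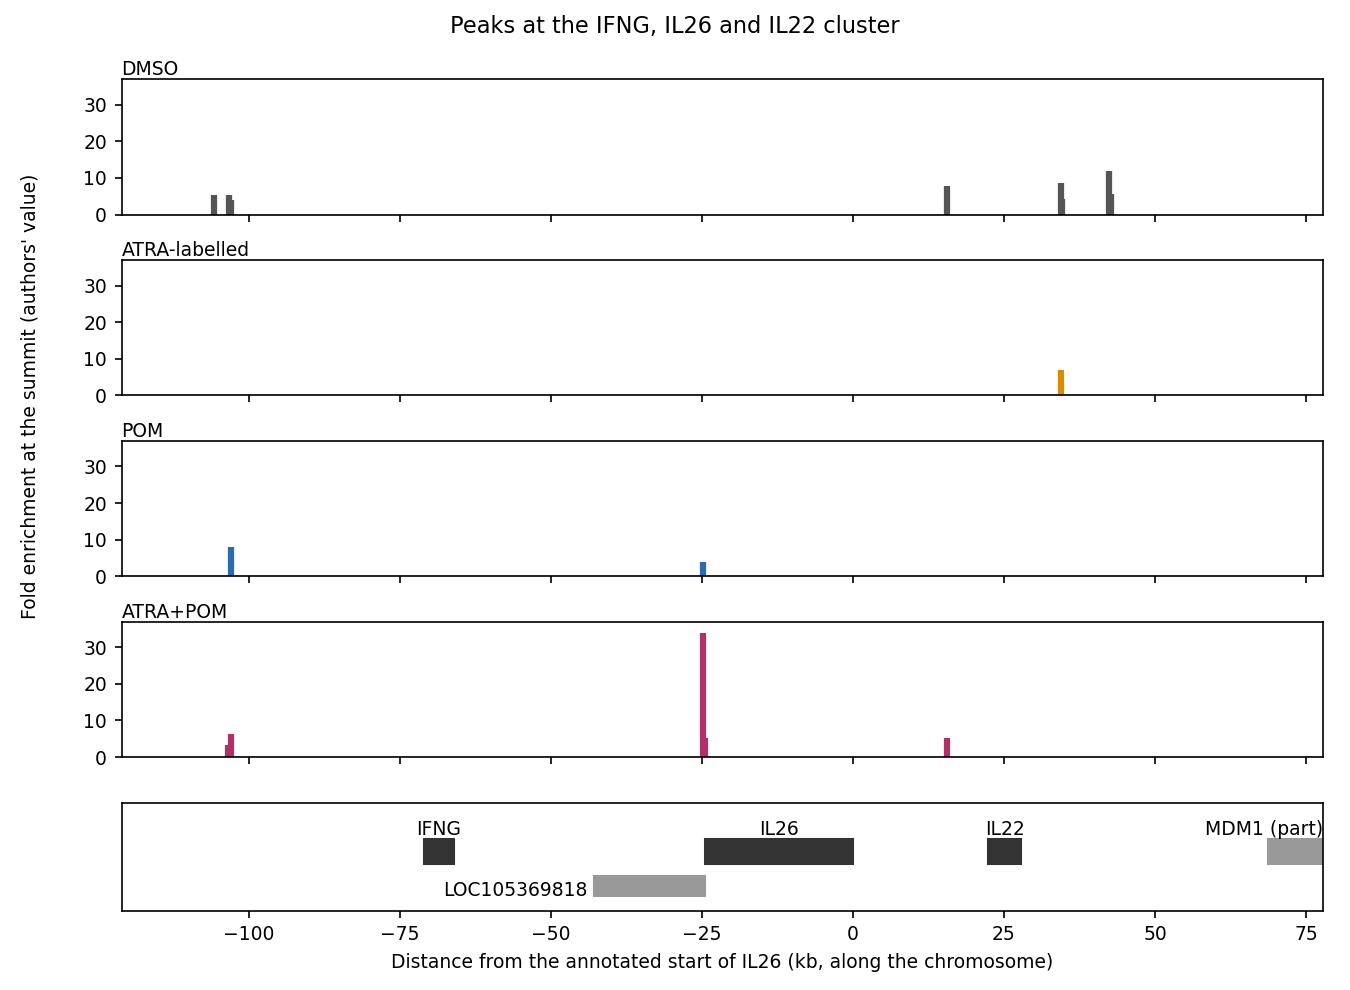
Peaks of the 4 lists across the cluster. The x axis is the distance in kb from the annotated start of IL26 along the chromosome, each bar stands at a peak's summit with the authors' fold enrichment as its height, and the lowest panel shows gene bodies. The ATRA+POM bar at the 3′ end of IL26 reaches 33.9, while no other bar passes 11.9.

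The strongest peak of the cluster was the ATRA+POM peak at the 3′ end of IL26 (chr12:68200522-68201179). IL26 is annotated on the minus strand from 68225810 down to 68201349, so this peak lay just past its last base and 24.8 kb from its start. Its fold enrichment was 33.9 and its summit held 312 reads (exact 95% Poisson interval 278 to 349). Its summit at 68200982 was 367 bp outside the IL26 body and inside LOC105369818, an uncharacterized long noncoding RNA gene (68182905 to 68201353) whose upper end overlaps the end of IL26 by 5 bp. A weaker ATRA+POM peak followed at 68201278 to 68201650, with 5.30-fold enrichment and 93 summit reads (75.1 to 114). Its summit was 4 bp from the end of IL26, and 302 of its 373 bp lay inside the gene.

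With POM alone the same place had 1 weak and narrow peak of 219 bp (68200844 to 68201062), with 3.87-fold enrichment and 62 summit reads (47.5 to 79.5). The POM summit was 27 bp from the ATRA+POM summit, so the same spot was called with the drug alone, at a much lower level. Only 5.79% of all POM peaks had a lower fold enrichment. The ATRA+POM peak in turn was among the top 5.88% of its list by fold enrichment. Neither DMSO nor the ATRA-labelled library had a peak there. IL26 was thus 1 of 179 genes (0.896% of all) whose gene-end peak ATRA+POM had and DMSO lacked, and 10 is its rank among them by summit reads, the value that picked the cluster. For POM against DMSO it was 1 of 387 genes (1.94%). It was not among the 68 genes (0.34%) called with ATRA+POM and without POM, since POM had its weak peak there, but was among the 791 (3.96%) that ATRA+POM had and the ATRA-labelled list lacked. Of the 179 genes that ATRA+POM had and DMSO lacked, 137 have a strand in the promoter table, and 50 of those (36.5%) had the peak at the far end of the gene alone, as IL26 did. Among all 6919 genes with a strand and an ATRA+POM gene-end peak the share was 4.36%. Other sets defined by absence from a list also had higher shares. It was 26.2% for genes that POM had and DMSO lacked and 38.9% for those that ATRA+POM had and POM lacked. For those that DMSO had and ATRA+POM lacked it was 9.11%.

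**Figure D2:**
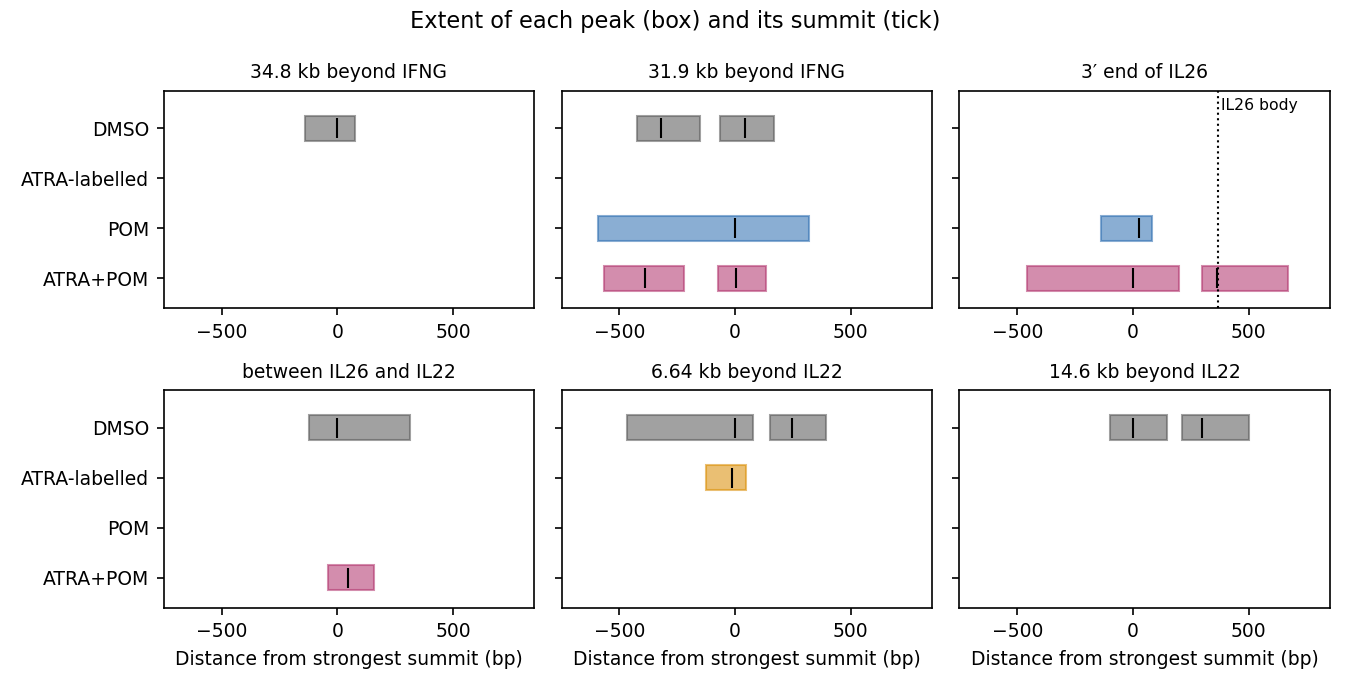
Extent of the peaks at the 6 sites. The x axis is the distance in bp from the strongest summit of the site, each row is 1 list, boxes are peaks and ticks are summits, and the dotted line marks where the IL26 body begins. At the 3′ end of IL26 the POM box lies inside the longer ATRA+POM box, with summits 27 bp apart.

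At this spot ATRA+POM stood higher over POM than at nearly all regions that both lists share. The cluster was picked by the ATRA+POM reads of this very peak, which favours a high ratio, so its place among the regions is a description only. The fold enrichment ratio of ATRA+POM over POM was 8.78. Over all 31667 shared regions the median log2 ratio was −0.659, so ATRA+POM was generally the lower of the pair, while at IL26 it was 3.13. Regions at least 4 times higher in ATRA+POM numbered 57 (0.18%), and 3 had a higher ratio than the IL26 site. These 3 lay near SEC22B on chromosome 1 (a ratio of 11.7), inside EPHA6 on chromosome 3 (9.88) and inside CREB5 on chromosome 7 (9.88). The background also differed, at 8.22 reads under the ATRA+POM summit and 15.3 under the POM summit. On summit reads alone, divided by relative depth, ATRA+POM over POM was 5.17, and 39 of the shared regions (0.123%) had a higher value, where the median was 0.611.

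**Figure D3:**
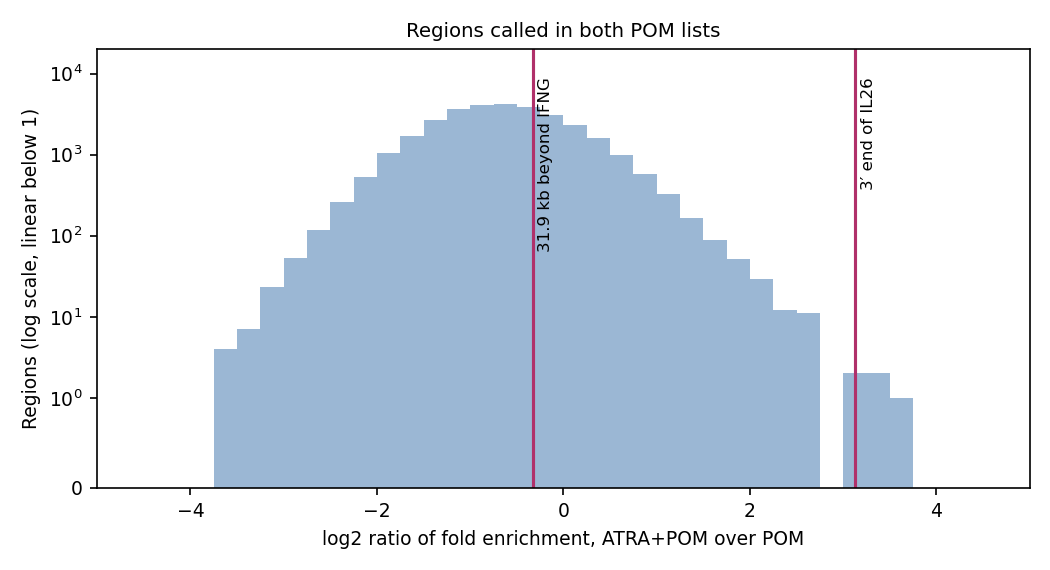
The log2 ratio of fold enrichment, ATRA+POM over POM, on the x axis and the number of regions on the y axis (log scale, linear below 1), for the 31667 regions called in both lists. Lines mark the cluster's regions: the one beyond IFNG at −0.33 lies in the bulk, and the one at the 3′ end of IL26 at 3.13 lies at the upper edge. The latter was picked by its ATRA+POM reads.

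How far DMSO could have hidden such a peak was read from the background. Over the background measured there with POM, scaled to the depth of DMSO, 37 reads would have reached the weakest p of the DMSO list. Over that measured with ATRA+POM 25 reads would have. The POM peak scaled to DMSO depth came to 66.9 reads and the ATRA+POM peak to 346, both above these limits. For the ATRA-labelled library the ATRA+POM peak scaled to 45.9 reads against 8 needed, and the POM peak to 8.87 against 11 needed. A peak of the ATRA+POM size would thus have passed in the ATRA-labelled library, and one of the POM size need not have.

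On the far side of IL22 the order was the reverse. The site nearest to IL22, with its summit 6.64 kb from the gene body, had a DMSO peak (chr12:68259776-68260319) of 131 summit reads (110 to 155) at 8.65-fold enrichment. A companion DMSO peak of 240 bp followed it with 86 reads (68.8 to 106). The ATRA-labelled peak, the only one of that library in the cluster, lay within the first of these (68260116 to 68260289), its summit 13 bp away, with a fold enrichment of 6.99 and 20 reads (12.2 to 30.9). Scaled to DMSO depth its reads came to 151, inside counting error of the 131 with DMSO. POM and ATRA+POM had no peak there. At their depths the DMSO peak would have had 121 and 118 reads, against 31 needed in each.

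Farther out, 14.6 kb from IL22, the DMSO list alone had a pair of peaks (68268127 to 68268374 and 68268439 to 68268728). The first had a fold enrichment of 11.9, the highest in the cluster outside IL26, over a low background of 3.52 reads. Its 53 summit reads (39.7 to 69.3) were fewer than at the neighbouring site, and the other peak had 24 (15.4 to 35.7). Scaled to POM and to ATRA+POM the 53 reads came to 49.1 and 47.8, against 13 needed. In the ATRA-labelled library they came to 7.03 against 6 needed, which is within counting error of the limit. The DMSO peaks beyond IL22 were thus without a counterpart in either list with pomalidomide.

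Between the genes, 15.5 kb upstream of the IL26 start and 6.91 kb from the IL22 body, a site was called with DMSO and with ATRA+POM. The DMSO peak (chr12:68241208-68241641) had 7.84-fold enrichment and 112 summit reads (92.2 to 135), and the ATRA+POM peak (68241287 to 68241487) 5.07 and 89 reads (71.5 to 110). The summits were 48 bp apart. The ratio of fold enrichment, ATRA+POM over DMSO, was 0.648 at this site, close to the middle of the 26253 regions shared by that pair, of which 52.6% had a higher ratio. POM had no peak here, although the DMSO peak scaled to 104 reads against 30 needed. In the whole genome 1.07% of regions were called with DMSO and ATRA+POM alone. The ATRA-labelled library lacked the peak too, with 14.9 reads expected from the DMSO peak against 10 needed. From the ATRA+POM peak and its background, 13.1 reads were expected there against 12 needed. Both are within counting error of the limit.

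On the IFNG side 2 sites lay beyond the 3′ end of the gene. The nearer one, about 32 kb from the body, was called in the DMSO, POM and ATRA+POM lists. POM had 1 peak of 911 bp (chr12:68122225-68123135) with 7.87-fold enrichment and 82 summit reads (65.2 to 102). ATRA+POM had peaks with 81 reads (64.3 to 101) and 74 reads (58.1 to 92.9), and DMSO had peaks with 45 (32.8 to 60.2) and 38 (26.9 to 52.2). The POM and ATRA+POM summits were 2 bp apart. The DMSO peak with the higher fold enrichment had its summit 320 bp from that of POM, and its other peak lay 42 bp away. Divided by relative depth, the peak with the highest fold enrichment had 1.97 times the DMSO reads with POM and 2.00 times with ATRA+POM, at summits that do not coincide. The POM and DMSO intervals did not overlap in counting error, but 14.8% of the 32829 regions shared by DMSO and POM had a higher ratio, and 9.85% of those shared by DMSO and ATRA+POM. The ATRA-labelled library had no peak, and the DMSO peak scaled to 5.97 reads there against 8 needed, while the POM peak scaled to 11.7 against 9.

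The outer site, 34.8 kb from IFNG (chr12:68119863-68120078), was the weakest by reads on this side. It was called with DMSO alone, with 5.27-fold enrichment and 31 summit reads (21.1 to 44.0). Of all DMSO peaks 13.2% had fewer reads. Scaled to the other lists it came to 28.7 reads with POM and 28.0 with ATRA+POM, against 16 needed in each, and to 4.11 in the ATRA-labelled library against 6.

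**Figure D4:**
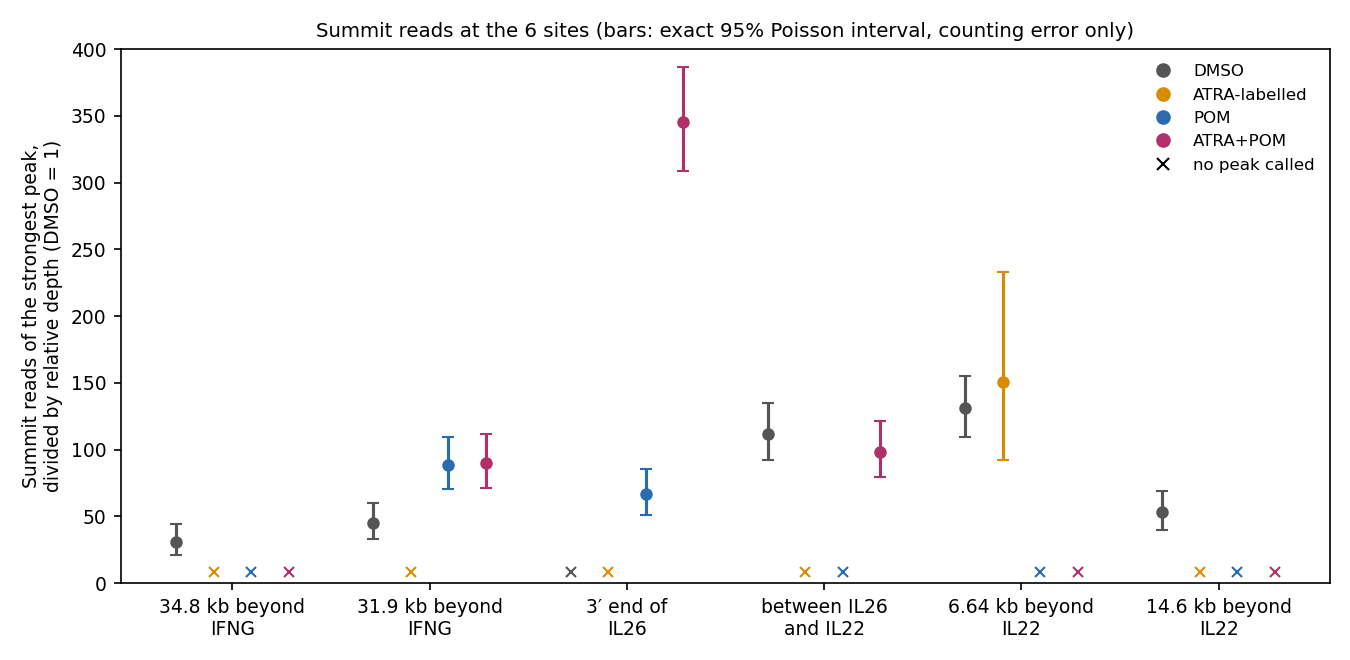
Summit reads of the strongest peak per list at the 6 sites, divided by relative depth (y axis), with the exact 95% Poisson interval of the count. Crosses stand for lists with no peak. ATRA+POM at the 3′ end of IL26 (346) is far above every other value, and the DMSO and ATRA-labelled values 6.64 kb beyond IL22 overlap.

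Set out by comparison, 6 of the 9 regions were DMSO regions that the ATRA-labelled list lacked (33.5% of all regions genome-wide), and 0 the other way (0.171%). For POM against DMSO, 1 region was called with POM only of the pair (23.9%), the IL26 end, and 6 with DMSO only (22.0%). For ATRA+POM against DMSO, 2 were called with ATRA+POM only (14.9%), both at the IL26 end, and 5 with DMSO only (31.8%). This last contrast is the one that led to the choice of the cluster, and the POM and ATRA+POM comparisons share the DMSO list. ATRA+POM against POM gave 2 regions called with the combination only (6.81%), the weaker peak at the IL26 end and the site between IL26 and IL22, and 0 with POM only (25.6%). Against the ATRA-labelled list, ATRA+POM had 4 regions of its own (24.5%) and lacked 1 (8.12%). The 9 regions are few, and neighbouring regions of a site are not independent. The excess of DMSO over ATRA+POM depended on weaker peaks: with the stronger 50% of each list 2 regions were called with DMSO only of that pair and 3 with ATRA+POM only, and with equal numbers of peaks 3 and 3. Of the 6 regions with DMSO and without POM, 4 belong to the pair of sites beyond IL22. Without the ATRA-labelled list, an alternative chosen after the data were seen, the counts among the other lists were the same. They could not change, since its only peak in the cluster lay inside a DMSO peak.

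At the neighbours of the cluster the order of the lists was another than at IL26. MDM1, which encodes a centriole protein and reaches into the windows, had a gene-end peak in all 4 lists. In the order DMSO, ATRA-labelled, POM and ATRA+POM its fold enrichment was 20.0, 22.3, 28.5 and 8.06, so there the combination was the lowest. RAP1B, a small GTPase gene 307 kb beyond the windows, had 52.7, 32.3, 43.4 and 16.6. On the other side DYRK2, a protein kinase gene 439 kb away, had 9.33, 5.65 and 6.67 and no gene-end peak with ATRA+POM. The peaks nearest outside the windows were at 38.6 kb on the IFNG side (DMSO, 51 summit reads, and ATRA+POM, 39) and 28.1 kb on the MDM1 side (DMSO, 39). Just inside, the outermost peaks had 31 reads (DMSO, IFNG side) and 24 (DMSO, IL22 side).

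Around the cluster, genes of its pathway were followed by peaks within 1000 bp of either gene end, which 48.8, 40.0, 47.9 and 41.3% of all protein-coding genes had in the order DMSO, ATRA-labelled, POM and ATRA+POM. That order holds for every run of 4 values below. Summit reads of these genes are not divided by relative depth. The DMSO peak of 45 reads beyond IFNG scaled to 5.97 reads in the ATRA-labelled library, against 8 needed. A DMSO peak of that size, as at STAT4, IL10 or CD274 below, need not have passed there. Of 16 receptor and signal genes 11, 9, 10 and 8 had one. IL10RB, the shared receptor chain of IL-22 and IL-26, had 740, 106, 296 and 302 summit reads, while IL20RA, IL22RA1 and IL22RA2, the partners that complete those receptors or bind IL-22, had no gene-end peak in any list. The IL10RB peaks lay at the far end of the gene, with none at its start. The ligand-binding chain of the interferon gamma receptor, IFNGR1, had 96, 15 and 61 reads in the first 3 lists and no gene-end peak with ATRA+POM. SOCS1, a feedback inhibitor of interferon gamma signalling, had 68, 16 and 49 and likewise none with ATRA+POM. STAT4, which drives IFNG in T cells, was called with DMSO (43) and POM (59) only, and SOCS3, an inhibitor of STAT3 signalling, with ATRA+POM only (29). The STAT4 peaks lay at the start of the gene, but the SOCS3 peak lay at its far end. Between DMSO and ATRA+POM, 4 members were called only in the former and 1 only in the latter, where 8.44% and 0.896% of all genes were. Between DMSO and the ATRA-labelled library these numbers were 2 and 0 (8.9% and 0.035% of all genes), between POM and ATRA+POM 3 and 1 (6.92% and 0.34%), and between the ATRA-labelled library and ATRA+POM 2 and 1 (2.63% and 3.96%).

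Among the 7 other cytokines of the IL-10 family and interferon lambda group, 2, 1, 3 and 2 had a gene-end peak. IFNL1 was the only one called in all 4 lists, at its far end, with 857, 145, 877 and 533 reads. IL20 resembled IL26 in part. It had no gene-end peak with DMSO or in the ATRA-labelled list, 34 summit reads with POM (fold enrichment 5.01) and 85 with ATRA+POM (12.7), and the peak lay at its far end rather than its start. IL10, an anti-inflammatory cytokine, had one at its start with DMSO (45) and POM (73) only. Other cytokine and effector genes of T and natural killer cells had few, with 1, 1, 3 and 2 of 18. IL5 was the only one of them called in all 4 lists, with 102, 12, 115 and 46 reads. CSF2 was called with POM (28) and ATRA+POM (21), and GZMA, a granule protease, with POM (108). These CSF2 peaks lay at its far end, and POM also had one of 18 reads at its start. IL2, IL4, IL17A, IL21, TNF, GZMB and PRF1 had none in any list. Within the pair POM and DMSO, 2 of the 18 were called with POM only, where 1.94% of all genes were.

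Of 23 factors that act on the cluster in lymphocytes, 14, 11, 13 and 11 had a gene-end peak. IRF4 had 476, 77, 391 and 167 summit reads, IKZF3 1050, 169, 1576 and 796, and RUNX1 548, 121, 1550 and 677. By contrast TBX21, RORA and GATA3, which set the T helper programs, had none in any list. The gene-end peak of IKZF1 was called with DMSO only (1110), those of BATF with DMSO (93), POM (90) and ATRA+POM (57), and that of BCL11B, a T cell factor, in all but ATRA+POM (85, 9 and 60). Within the pair DMSO and POM, 2 of the 23 were called with DMSO only, where 2.9% of all genes were.

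Of 16 genes that interferon gamma induces, 5, 3, 7 and 4 had a gene-end peak. CD274, which encodes the checkpoint ligand PD-L1, had a peak at its start of 44 reads with DMSO, of 409 with POM and of 688 with ATRA+POM, and none in the library labelled ATRA. IDO1, a tryptophan-degrading enzyme, had 242 reads with POM and 358 with the combination and no gene-end peak otherwise, and GBP1, a guanylate-binding protein, had 46 with POM only. ICAM1 likewise had 31 with POM only. Other members had fewer summit reads, not divided by depth, with POM and ATRA+POM than with DMSO. IRF1 had 74, 7, 38 and 23 reads, CIITA 124, 32, 65 and 28, and GBP2 42 with DMSO only, and SOCS1 (above) is also on this list. Fold enrichment did not follow this at each gene. With POM it was lower than with DMSO at IRF1 (11.4 against 20.4). It was higher with POM at CIITA (16.8 against 8.67) and SOCS1 (14.6 against 11.4). The chemokine genes CXCL9, CXCL10 and CXCL11 had none in any list, nor had GBP4, GBP5, TAP1, PSMB9 and HLA-DRA. Within the pair POM and DMSO, 3 of the 16 were called with POM only and 1 with DMSO only, where 1.94% and 2.9% of all genes were. Whether any of these genes moved with interferon gamma was not measured, since no expression values were used.

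**Figure D5:**
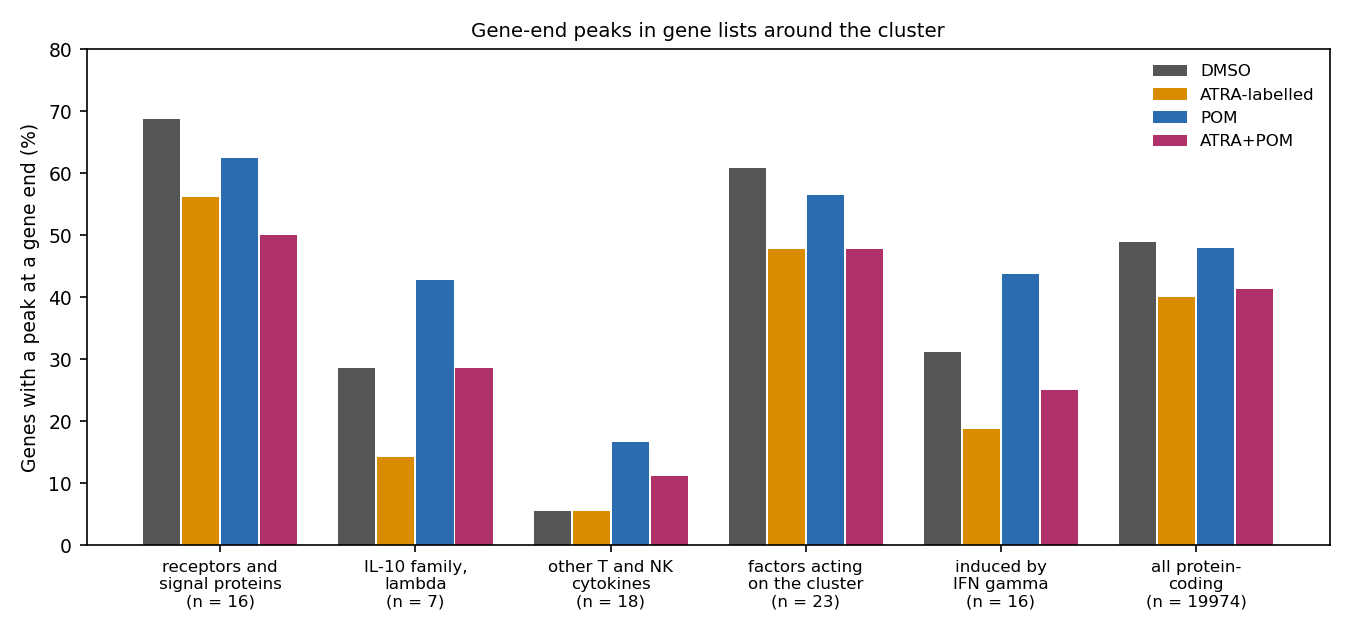
Share of genes with a peak within 1000 bp of a gene end (y axis, percent) in the 5 gene lists and in all protein-coding genes, 1 bar per list of peaks. The T and natural killer cytokine list stays at 16.7% or lower in each list, below the 40.0 to 48.8% of all genes.

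By the number of peaks within 50 kb of the gene, IL26 had 5, 1, 1 and 3 in the same order of lists. IFNG had 3, 0, 2 and 4, and IL22 5, 1, 1 and 3. No gene elsewhere had the same 4 numbers as IL26. The nearest by the sum of absolute differences over the 4 lists were DRAM1, DSTN, ONECUT2 and RSC1A1, each at a distance of 1, followed by ABCF2, one of 33 genes at a distance of 2. Such counts ignore the height of the peaks and describe only how many were called.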

How the data were processed

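Peaks of 4 ChIP libraries were analysed, 1 per treatment with no replicates, and the 4 inputs entered only through these lists. Peaks were deposited per library on hg38, per the submitters' processing notes. The deposited score equals the peak's −log10 p multiplied by 10 and truncated for 99.5 to 99.9% of the peaks of a list, and the authors also give −log10 p, −log10 q and a fold enrichment, which is a ratio within the library. Aligner, peak caller and antibody: not given in the sources used here.

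Only chromosomes 1 to 22 and X entered. Summit reads r and background b were solved from fold = (r + 1)/(b + 1) and the Poisson p of more than r reads. They came out whole within 0.02 for 100.0% of DMSO, POM and ATRA+POM peaks and 99.5% of ATRA-labelled peaks. Relative depth was taken from the lowest background that 20 or more peaks of a list share, per base of its narrowest peak. The reads needed are those that reach the lowest −log10 p of that list over another list's background. These quantities are inferred from the deposited values. Peaks sharing a base were merged into regions. Gene positions came from RefSeq (GRCh38.p14), with strand and upstream sequence for 2 of the 3 members, IFNG and IL26.

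The members and gene lists were chosen with earlier results of these data known. Named genes are the members, their neighbours, the 5 genes most like IL26, and up to 4 per list with a gene-end peak in 1 list of a pair. Other list genes and the 3 regions with a higher ratio were named after their values were seen. Alternatives were stricter peak sets, another overlap, merging distance and flank. On data simulated from ATRA+POM peaks with the same formulas, 100.0% of 3000 summit reads were recovered. This checks the solving step only. It cannot show that the peak caller used these formulas, and the lowest backgrounds of the ATRA-labelled library were not simulated. Software: Python 3.11.15 with scipy 1.17.1, numpy 2.4.6, matplotlib 3.10.9, pandas 2.3.3.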

Additional observations from a re-analysis of the deposited data

How the results depend on the processing

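With the stronger 50% of each list, regions called in the cluster came to 2 for DMSO and 3 for ATRA+POM, with 1 for POM and 0 for the ATRA-labelled library, which turns the order of DMSO and ATRA+POM (7 and 4 with all peaks). Regions with DMSO and without ATRA-labelled, POM or ATRA+POM peaks came to 2 each, against 3 with ATRA+POM and without DMSO (for that pair 5 and 2 with all peaks), and those with an ATRA-labelled and no ATRA+POM peak to 0. With the 36742 strongest peaks of each list there were 4 DMSO, 4 ATRA+POM and 1 POM regions, with 3 DMSO regions lacking in the ATRA-labelled list, 3 in ATRA+POM, and 3 ATRA+POM regions lacking in DMSO, so that pair was level. When 50% of a peak had to be shared, 2 POM regions had no DMSO and 1 no ATRA+POM counterpart. With peaks within 500 bp merged, 3 DMSO regions lacked an ATRA+POM peak, 1 ATRA+POM region lacked DMSO and 1 lacked POM. With a flank of 20 kb, POM had 1 region. The other 98 values stayed within 1.5 times or the counting interval, but many of them could not move. The 22 values for the peak with the most summit reads came from the same peak as in the main setting. The 14 values at −log10 q of at least 10 were fixed, since the lowest in the cluster was 11.45. The 9 values without the ATRA-labelled list were fixed too, since its only peak here lay inside a DMSO peak. The cause of each shift was not tested. No paired analysis was possible because each treatment had 1 library. Low depth limits the ATRA-labelled list at weak sites: a peak of the POM size at the IL26 end would come to 8.87 reads there against 11 needed, while one of the ATRA+POM size would come to 45.9 against 8.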
